A study of Homo sapiens with 18 samples.

Results

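The D cyclins CCND1, CCND2 and CCND3, the E cyclins CCNE1 and CCNE2 and the G1 kinases CDK2, CDK4 and CDK6 were followed through an ATAD2 knockdown in hepatocellular carcinoma cells. Every probe set that the platform annotation assigns to exactly 1 of these 8 genes was taken, which gave 23 of 54675 probe sets and 8 of 19775 genes. CDK6 had 7 of them, CCND2 had 4, CDK2 had 3, CCND1, CCND3, CCNE1 and CCNE2 had 2 each, and CDK4 had 1. Given the genes, the probe sets were taken by annotation alone, but the genes were chosen with earlier results of these data known.

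D cyclins bind CDK4 or CDK6 and E cyclins bind CDK2, and the 2 kinds of complex phosphorylate the retinoblastoma protein RB1 in turn as a cell passes from G1 into S phase. Phosphorylated RB1 releases the E2F transcription factors, whose targets include the E cyclins and the genes of DNA replication. Growth factor signals act early in this sequence through CCND1, and amplification or high expression of CCND1 and CCNE1 is known from hepatocellular carcinoma.

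ATAD2 is a chromatin-bound ATPase with a bromodomain. The 3 established lines of human hepatocellular carcinoma, labelled Hep3B, SNU449 and PLC (PLC/PRF/5), were grown in RPMI and transfected with siRNA by Lipofectamine RNAiMax. The groups were Hep3B with ATAD2 siRNA, SNU449 with ATAD2 siRNA, PLC with ATAD2 siRNA, and the same lines with a control siRNA described as non-targeting, with 3 arrays in each of the 6 groups. The labels call the arrays biological replicates and name the treated ones knockouts, while the design and the protocol describe siRNA. The sources used here give neither the dose nor the time of harvest. Values are log2 signals after quantile normalization over all 18 arrays, and a change is the mean log2 signal with ATAD2 siRNA minus that with control siRNA.

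ATAD2 itself fell in every line, by 3.80 on the log2 scale in Hep3B (13.9-fold lower, limma adjusted p = 2.74e-10), by a change of -2.39 in SNU449 (5.23-fold lower, adjusted p = 1.36e-06) and of -2.62 in PLC (6.14-fold lower, adjusted p = 5.03e-07). The arrays labelled Hep3B and SNU449 ran against what is known of those lines, since Hep3B is known for making plasma proteins and for lacking RB1. The albumin gene ALB had a control mean of 13.8 in arrays labelled SNU449, of 10.6 in PLC arrays and of 3.03 in arrays labelled Hep3B. All 6 hepatocyte genes listed (ALB, AFP, APOA1, TF, SERPINA1 and TTR) had their highest control mean in SNU449 arrays and their lowest in Hep3B arrays. RB1 lay between 4.46 and 4.75 on the ATAD2 siRNA arrays labelled SNU449 and between 4.27 and 4.63 on their controls. On the arrays labelled Hep3B it lay between 9.15 and 9.37 with ATAD2 siRNA and between 9.44 and 9.51 with control siRNA. The names Hep3B and SNU449 below therefore mean the arrays labelled so.

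In Hep3B CCND1, CDK6 and CCNE1 fell with ATAD2 siRNA and CCND3 rose, while the change of CDK4 was near 0. Across the 23 probe sets 8 were called at an adjusted p under 0.05 (limma, Benjamini-Hochberg over all probe sets), against 8.86% of the whole table. Of these 7 fell and 1 rose, against 3.78% and 5.08% of the whole table. The RNA came from bulk cultures, in which fewer cells of a cycle phase and less RNA per cell cannot be told apart. With 1 probe set a gene, the one with the highest mean signal, 3 of the 8 genes fell and 1 rose, against 5.6% and 6.9% of 19775 genes. The median change over the 8 genes was -0.25, against -0.02 over all genes. The plot of all 23 changes sets these next to the other lines.

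**Figure D1:**
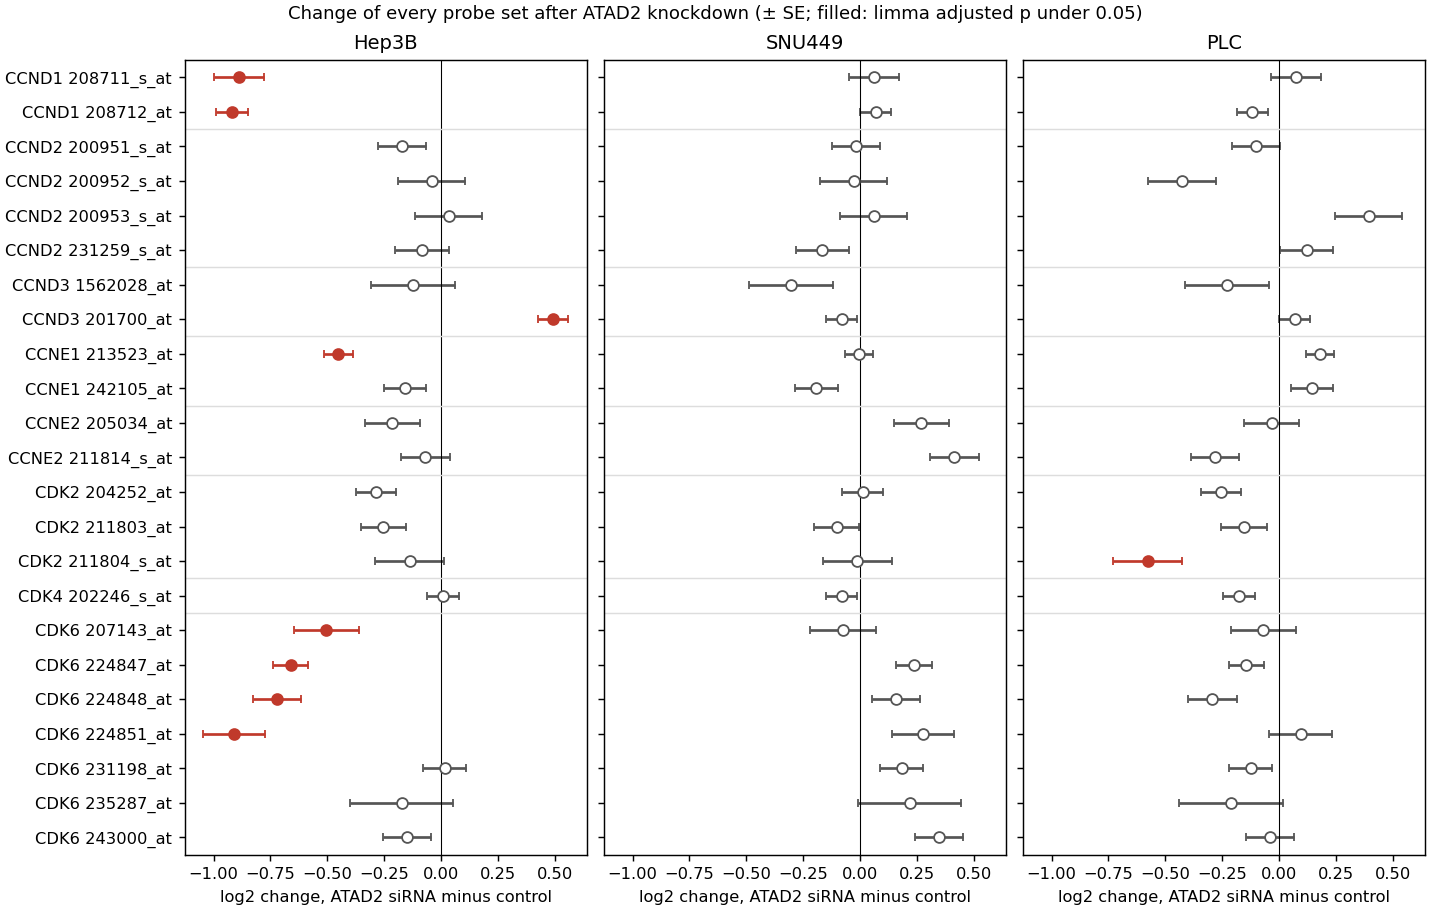
Change of each of the 23 probe sets after ATAD2 siRNA (log2, ATAD2 siRNA minus control siRNA, points, with standard error bars) in Hep3B, SNU449 and PLC, with filled points for adjusted p under 0.05. Filled points are 8 in Hep3B, 0 in SNU449 and 1 in PLC, and the CCND1 probe sets in Hep3B lie at -0.92 and -0.89.

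CCND1 encodes cyclin D1, the D cyclin most closely tied to growth factor signals. Its brighter probe set, 208712_at, had 7.91, 8.05 and 8.09 with ATAD2 siRNA in Hep3B, against 8.94, 8.93 and 8.93 with control siRNA. All 3 knockdown arrays lay below all 3 controls, and the change was -0.92 ± 0.07 (SE, 1.89-fold lower, adjusted p = 2.39e-07). The other probe set, 208711_s_at, had 8.41, 8.28 and 8.25 with ATAD2 siRNA and 9.32, 9.20 and 9.09 with control siRNA. The groups did not overlap there either, and the change of -0.89 ± 0.11 (adjusted p = 4.71e-05) was close to that of 208712_at.

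The same cyclin gave no call in the other lines. In SNU449 the probe set 208712_at had 8.50, 8.50 and 8.49 with ATAD2 siRNA, all just above 8.48, 8.48 and 8.33 with control siRNA, a change of 0.07 with a 95% interval from -0.08 to 0.21. In PLC it had 9.21, 9.27 and 9.10 with ATAD2 siRNA, against 9.40, 9.28 and 9.25 with control siRNA. The PLC groups overlapped, and the change was -0.12 with an interval from -0.26 to 0.03. A fall of the size seen in Hep3B lies outside both intervals. The other probe set, 208711_s_at, had changes of 0.06 in SNU449 and 0.08 in PLC, with overlapping groups in both lines.

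CDK6 is one of the kinases that cyclin D1 activates. Its brightest probe set, 224847_at, had 9.57, 9.99 and 9.82 with ATAD2 siRNA in Hep3B, against 10.47, 10.47 and 10.43 with control siRNA. The groups were apart, and the change was -0.66 ± 0.08 (1.58-fold lower, adjusted p = 3.33e-05). The probe set 224848_at had 8.68, 9.06 and 8.70 with ATAD2 siRNA and 9.67, 9.55 and 9.38 with control siRNA, a change of -0.72 ± 0.11 (adjusted p = 0.000271). The probe set 224851_at had 8.89, 9.18 and 8.87 with ATAD2 siRNA and 10.12, 9.75 and 9.81 with control siRNA, a change of -0.91 ± 0.14 (adjusted p = 0.000315). On all 3 of these probe sets the second knockdown array was the highest of its group and still lay below every control.

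CDK6 207143_at, a dimmer probe set, had 5.28, 5.50 and 5.38 with ATAD2 siRNA in Hep3B, against 6.30, 5.61 and 5.77 with control siRNA. Its first control array stood above the others, and the change was -0.50 ± 0.14 (adjusted p = 0.0366). Without that array the change was -0.30 (adjusted p = 0.166), and the call was also lost without the third control array or without any one of the ATAD2 siRNA arrays of Hep3B (adjusted p from 0.05002 to 0.116). The remaining CDK6 probe sets, 231198_at, 235287_at and 243000_at, had changes of 0.02, -0.17 and -0.15 in Hep3B, with overlapping groups and no call. All 3 had signals of 5.46 or less on every Hep3B array.

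CCNE1 encodes cyclin E1, which activates CDK2 at the end of G1. Its brighter probe set, 213523_at, had 7.96, 7.97 and 7.93 with ATAD2 siRNA in Hep3B and 8.41, 8.48 and 8.33 with control siRNA. The groups were apart and the change was -0.45 ± 0.06 (1.37-fold lower, adjusted p = 0.000156). The other probe set, 242105_at, lay below the array median on every Hep3B array, and its change was -0.16 (adjusted p = 0.399).

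CCND3 encodes cyclin D3, another partner of CDK4 and CDK6, and went the other way. The brighter probe set, 201700_at, had 8.68, 8.78 and 8.79 with ATAD2 siRNA in Hep3B, against 8.28, 8.25 and 8.24 with control siRNA. All knockdown arrays lay above all controls, and the change was 0.49 ± 0.07 (1.41-fold higher, adjusted p = 0.000126). The dimmer probe set 1562028_at had 5.18, 4.83 and 4.92 with ATAD2 siRNA and 4.96, 5.00 and 5.33 with control siRNA, and its change was -0.12 (adjusted p = 0.861). With the mean of both probe sets the change of CCND3 was 0.18 (adjusted p = 0.239), so the call belongs to 201700_at.

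**Figure D2:**
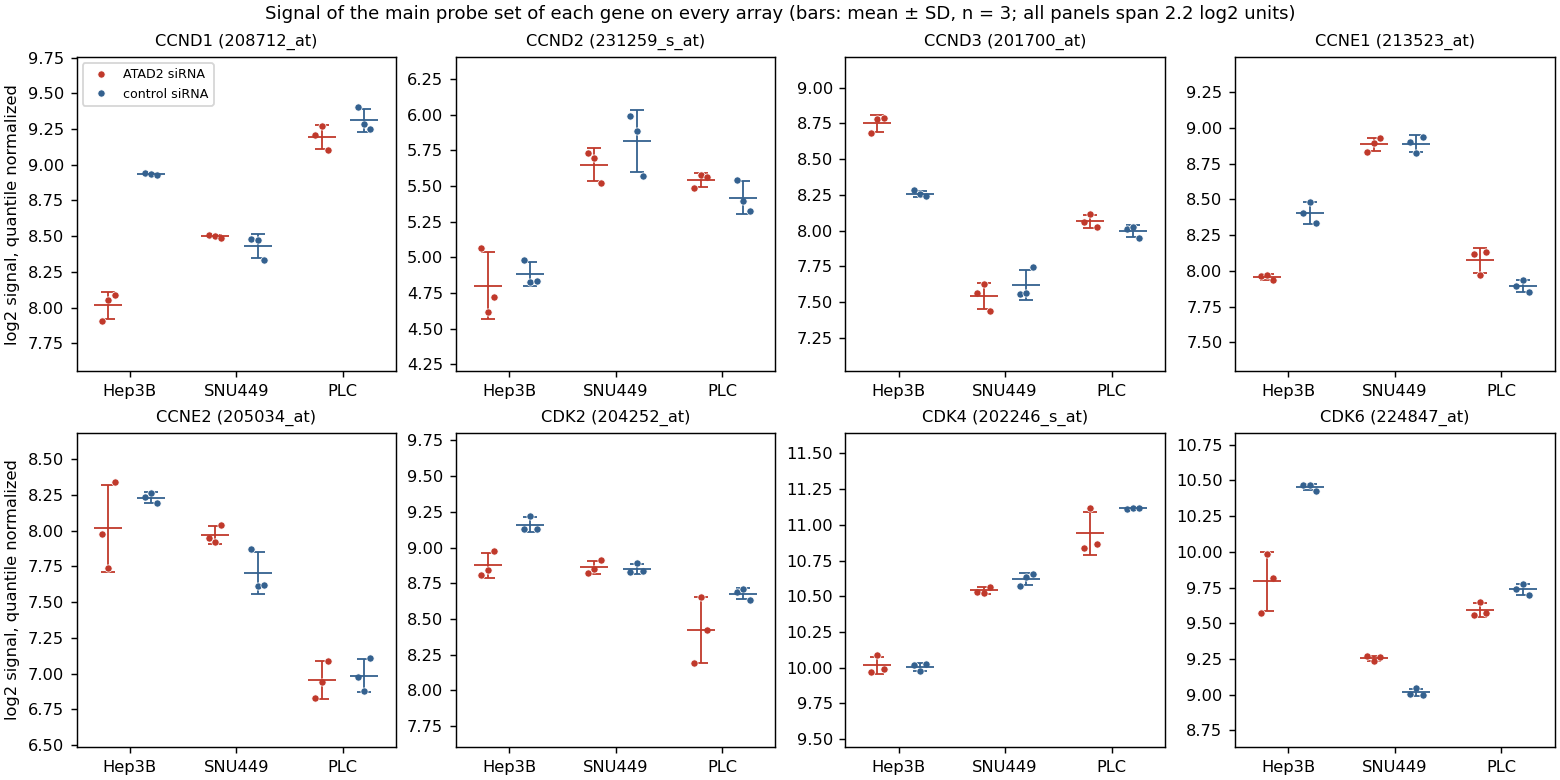
Log2 signal on each array (points) for the probe set of highest mean signal of each of the 8 genes, with ATAD2 siRNA left of control siRNA in each line and bars for the mean ± SD of 3 arrays. In Hep3B the knockdown points of CCND1, CCNE1, CDK2 and CDK6 lie below the control points and those of CCND3 above them, and the points of CDK4 overlap.

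RefSeq promoter sequences (GRCh38.p14) were searched for 4 of the 8 genes, CCND3, CCNE1, CDK4 and CDK6. Those of CCND1, CCND2, CCNE2 and CDK2 were not searched, so the motif results do not cover these genes. The 250 bases before the listed start are printed for CCNE1 and CDK6, which fell in Hep3B, and for CDK4, which gave no call, so that a called and an uncalled kinase can be read beside each other. Lower case runs 5′ to 3′ along the strand of the gene, and capitals mark GC boxes (GGGCGG or its reverse complement, CCGCCC) and E boxes (CACGTG), which did not overlap. The CCNE1 window is chr19:29811741-29811990 on the plus strand, the CDK6 window is chr7:92836574-92836823 on the minus strand, and the CDK4 window is chr12:57752311-57752560 on the minus strand.
CCNE1: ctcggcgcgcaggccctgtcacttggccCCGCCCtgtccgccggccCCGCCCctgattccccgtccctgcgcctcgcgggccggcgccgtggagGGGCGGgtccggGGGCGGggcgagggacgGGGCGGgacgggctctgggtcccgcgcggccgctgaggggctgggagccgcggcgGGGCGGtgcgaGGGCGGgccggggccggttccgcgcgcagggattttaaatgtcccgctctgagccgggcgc
CDK6: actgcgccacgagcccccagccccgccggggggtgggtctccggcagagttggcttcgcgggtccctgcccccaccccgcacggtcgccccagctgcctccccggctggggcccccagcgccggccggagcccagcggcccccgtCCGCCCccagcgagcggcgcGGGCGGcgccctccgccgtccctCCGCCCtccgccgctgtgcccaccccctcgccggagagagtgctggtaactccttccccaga
CDK4: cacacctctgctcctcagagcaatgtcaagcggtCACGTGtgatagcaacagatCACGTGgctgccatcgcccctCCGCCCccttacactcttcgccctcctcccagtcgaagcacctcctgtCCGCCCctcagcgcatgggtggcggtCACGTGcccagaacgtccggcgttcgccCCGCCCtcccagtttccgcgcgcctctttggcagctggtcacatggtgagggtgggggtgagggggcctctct
The CCNE1 window held 7 GC boxes and was 81.2% G or C, and the CDK6 window held 3 GC boxes. The CDK4 window held 3 GC boxes and 3 E boxes, and the E boxes started 216, 196 and 101 bases before the start of transcription. A GC box was found in 42.6% of 35116 promoter windows of the same length and an E box in 6.35% of them. The letters TTTNNCGC, a form of the E2F site present in 5.92% of the windows, were searched on both strands and were found in none of the windows of the 4 genes, which included 3 starts of CCND3 and 2 of CDK6. The AP-1 site TGANTCA, present in 6.57% of the windows, was searched too, and the other CDK6 start held none of the motifs searched.

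CDK4 binds the same D cyclins as CDK6. Its single probe set, 202246_s_at, had 9.97, 10.09 and 9.99 with ATAD2 siRNA in Hep3B, against 10.02, 9.98 and 10.03 with control siRNA. The groups overlapped, and the change was 0.01 with a 95% interval from -0.14 to 0.16. This interval lay wholly above that of CDK6 224847_at, which ran from -0.83 to -0.49.

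CDK2 is the partner of the E cyclins. Its brightest probe set, 204252_at, had 8.81, 8.84 and 8.98 with ATAD2 siRNA in Hep3B and 9.13, 9.22 and 9.13 with control siRNA. The arrays did not overlap, but the change of -0.29 ± 0.09 missed the threshold (adjusted p = 0.0582). It passed without the first or the second ATAD2 siRNA array of PLC, which enter the shared estimate of spread (adjusted p = 0.0144 and 0.0112). The dimmer probe sets 211804_s_at and 211803_at had changes of -0.14 and -0.25 with overlapping groups. Without the second ATAD2 siRNA array of Hep3B the change of 211803_at was -0.35 and passed the threshold. It also passed with values as deposited (-0.34, limma adjusted p = 0.0388). With the 5′ to 3′ difference described below as a covariate it passed too (-0.29, adjusted p = 0.04).

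CCNE2 encodes cyclin E2, a second partner of CDK2. Its brighter probe set, 205034_at, had 7.97, 7.74 and 8.34 with ATAD2 siRNA in Hep3B and 8.24, 8.27 and 8.19 with control siRNA. The groups overlapped, with the highest and the lowest value both on knockdown arrays, and the change was -0.21 ± 0.12 (adjusted p = 0.378). Without the third ATAD2 siRNA array of Hep3B it was -0.38 and passed the threshold.

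CCND2 encodes cyclin D2, another D cyclin, and most of its probe sets were dim. Its probe sets 200951_s_at and 200952_s_at lay below the array median on all 18 arrays, and 200953_s_at did so in Hep3B and PLC. The brightest, 231259_s_at, had 5.06, 4.61 and 4.72 with ATAD2 siRNA in Hep3B and 4.98, 4.83 and 4.84 with control siRNA. The groups overlapped, and none of the 4 probe sets was called in any line. In PLC 200952_s_at had 3.13, 3.17 and 3.83 with ATAD2 siRNA and 4.07, 3.73 and 3.62 with control siRNA, a change of -0.43 (adjusted p = 0.118). Without the third ATAD2 siRNA array it was -0.65 and passed. The probe set 200953_s_at had 4.13, 3.83 and 4.66 with ATAD2 siRNA in PLC and 3.81, 3.90 and 3.71 with control siRNA, a change of 0.40 (adjusted p = 0.142). Without the second ATAD2 siRNA array it was 0.58 and passed (adjusted p = 0.00734). The 2 probe sets thus lay on opposite sides of 0.

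In Hep3B, 9 of the 23 probe sets had all knockdown arrays below all controls and 1 had them all above, against 13.3% of all probe sets in each direction. The 7 called lower probe sets were joined by CDK2 204252_at and CCND2 200951_s_at.

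In SNU449 no probe set of the 8 genes was called (limma), against 0.0439% of all probe sets. At an unadjusted p under 0.05 there were 4 of the 23, against 4095 of 54675 over the whole table. The smallest adjusted p belonged to CCNE2. Its probe set 211814_s_at had 5.93, 5.96 and 5.99 with ATAD2 siRNA in SNU449, against 5.63, 5.56 and 5.43 with control siRNA. The groups were apart, and the change was 0.42 ± 0.11 (adjusted p = 0.241). The other CCNE2 probe set, 205034_at, had 7.95, 7.92 and 8.04 with ATAD2 siRNA and 7.87, 7.61 and 7.62 with control siRNA. It too had all knockdown values above the controls, with a change of 0.27 (adjusted p = 0.634).

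CDK6 in SNU449 had the same kind of pattern on more probe sets. The probe set 224847_at had 9.27, 9.24 and 9.26 with ATAD2 siRNA and 9.003, 9.05 and 8.999 with control siRNA, a change of 0.24 ± 0.08 (adjusted p = 0.396). The probe set 243000_at had 5.01, 4.98 and 5.07 with ATAD2 siRNA and 4.57, 4.69 and 4.77 with control siRNA, a change of 0.35 (adjusted p = 0.341). On 6 of the 7 CDK6 probe sets every knockdown array lay above every control, with changes between 0.16 and 0.35. The seventh, 207143_at, overlapped. Of the 6, 231198_at and 235287_at lay below the array median on every SNU449 array. The same held for 243000_at on all SNU449 arrays but 1 with ATAD2 siRNA. None of the 7 passed the threshold, and probe sets of 1 gene on the same arrays are not independent of each other. Over the 8 genes 9 of the 23 probe sets had all knockdown arrays above all controls, and 3 had them all below, against 9.6% and 10% of all probe sets.

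The brightest probe sets of the other genes in SNU449 had smaller changes. CCNE1 213523_at had 8.84, 8.90 and 8.93 with ATAD2 siRNA and 8.90, 8.83 and 8.94 with control siRNA, and its interval ran from -0.14 to 0.13. CDK2 204252_at had 8.82, 8.85 and 8.91 with ATAD2 siRNA and 8.83, 8.89 and 8.83 with control siRNA, and its change was 0.01. CCND3 201700_at had 7.56, 7.62 and 7.44 with ATAD2 siRNA and 7.56, 7.57 and 7.74 with control siRNA, with a change of -0.08. The values of all 3 genes overlapped between the groups. CDK4 had 10.53, 10.53 and 10.57 with ATAD2 siRNA, all just below 10.57, 10.64 and 10.66 with control siRNA, and its change was -0.08 (adjusted p = 0.971).

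In PLC 1 of the 23 probe sets was called, CDK2 211804_s_at, against 3.44% of all probe sets and 1.84% called lower. It had 5.88, 6.64 and 5.96 with ATAD2 siRNA and 6.75, 6.66 and 6.81 with control siRNA. The second knockdown array lay just below the controls and the first and the third far below, and the change was -0.58 ± 0.15 (adjusted p = 0.0483). The call was lost without any one of the other PLC arrays (adjusted p from 0.0803 to 0.150). It was also lost without any one of the Hep3B controls, the third ATAD2 siRNA array of Hep3B or any one of the SNU449 arrays. With each line fitted by itself the call was lost too, and 3 of all probe sets (0.00549%) were called in PLC. The brighter CDK2 probe set, 204252_at, had 8.19, 8.65 and 8.42 with ATAD2 siRNA and 8.69, 8.71 and 8.63 with control siRNA. The second knockdown array lay among the controls here, and the change was -0.26 (adjusted p = 0.118).

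The first and the third ATAD2 siRNA arrays of PLC also stood apart in the mean difference between the 5′ and 3′ probe sets of beta-actin and GAPDH, a measure known to fall as RNA is degraded. That difference was -1.15, -0.45 and -1.09 on the ATAD2 siRNA arrays of PLC and -0.59, -0.49 and -0.44 on the PLC controls. With it as a covariate the change of CDK2 211804_s_at was -0.18 (adjusted p = 0.392), and with the first and the third arrays left out it was -0.10 (adjusted p = 0.829). CDK4 202246_s_at had the same order, with 10.84, 11.12 and 10.86 with ATAD2 siRNA against 11.11, 11.12 and 11.12 with control siRNA. Its second knockdown array matched the controls while the first and the third lay lower, and the change was -0.18 (adjusted p = 0.163). The plot of PLC arrays shows this order.

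**Figure D3:**
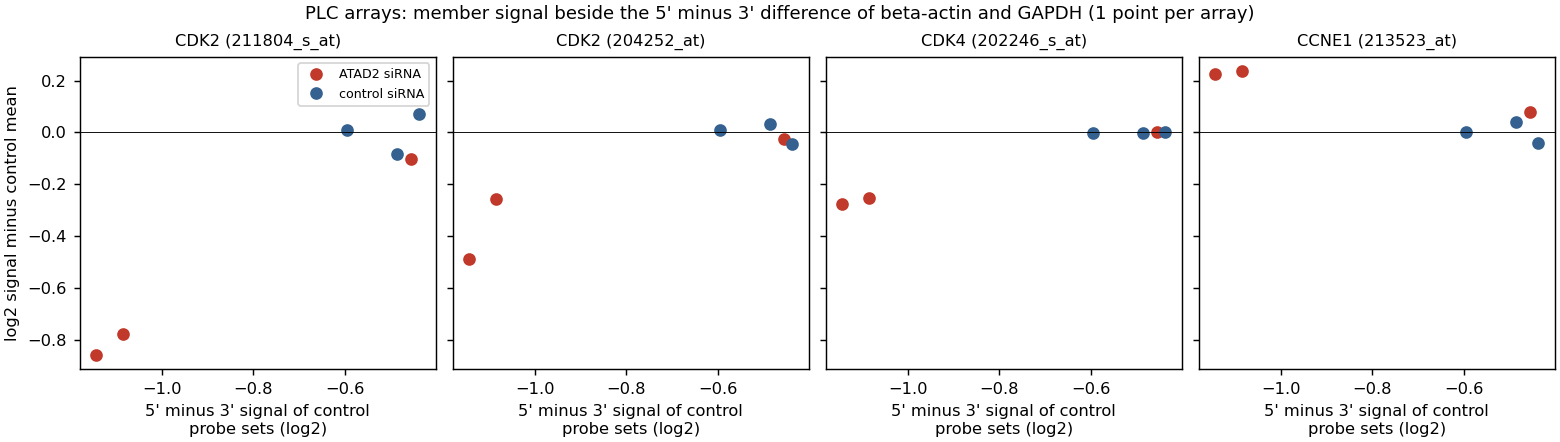
Deviation of each PLC array from the mean of the 3 PLC control arrays (log2, vertical axis) against its 5′ minus 3′ difference (log2, horizontal axis), in panels for CDK2 211804_s_at, CDK2 204252_at, CDK4 and CCNE1 213523_at, with ATAD2 siRNA arrays in red and control siRNA arrays in blue. The ATAD2 siRNA arrays at -1.15 and -1.09 lie below the controls for both CDK2 probe sets and CDK4 and above them for CCNE1, and the array at -0.45 lies near the controls.

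The cyclins of PLC gave no call when all 18 arrays were fitted without a covariate. With the 5′ to 3′ difference as a covariate CCND3 1562028_at was called lower, at -0.66 (limma, adjusted p = 0.0318). That probe set lay below the array median on every PLC array, and its change was -0.23 without the covariate. CCNE1 213523_at had 8.12, 7.97 and 8.13 with ATAD2 siRNA in PLC, all above 7.89, 7.93 and 7.85 with control siRNA, and its change was 0.18 ± 0.06 (adjusted p = 0.119). CCND3 201700_at had 8.06, 8.12 and 8.02 with ATAD2 siRNA and 8.01, 8.02 and 7.95 with control siRNA, a change of 0.07. CCNE2 205034_at had 6.83, 6.94 and 7.09 with ATAD2 siRNA and 6.97, 6.88 and 7.11 with control siRNA, a change of -0.03. Of these 3 genes CCNE1 had groups that did not overlap, and the first and the third of its knockdown arrays were the highest. Over the 23 probe sets in PLC 1 had all knockdown arrays above all controls and 3 had them all below, against 8.24% and 8.44% of all probe sets.

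CDK6 224847_at in PLC had 9.56, 9.65 and 9.57 with ATAD2 siRNA and 9.74, 9.77 and 9.70 with control siRNA. Its groups were apart and its change was -0.14 (adjusted p = 0.34). The probe set 224851_at had 8.26, 8.58 and 8.42 with ATAD2 siRNA and 8.06, 8.24 and 8.67 with control siRNA, a change of 0.09, so that the CDK6 probe sets did not share a direction in PLC. The probe set 224848_at had 8.23, 8.52 and 8.16 with ATAD2 siRNA, all below 8.64, 8.62 and 8.54 with control siRNA, a change of -0.29 (adjusted p = 0.133). Without the second ATAD2 siRNA array of PLC, 7 probe sets of the 8 genes passed the threshold, among them CCNE1 213523_at at 0.23, CDK4 at -0.26, CDK2 204252_at at -0.37 and CDK6 224848_at at -0.40. The calls over the whole table went up as well under that setting, to 7588 probe sets (13.9%). The spread was widest in this group, with a median SD over all probe sets of 0.144, against 0.0954 on the PLC controls.

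The difference of the knockdown effect between lines was tested by an F test over the interaction terms. It called 8 of the 23 probe sets, against 4.67% of all probe sets. They were both CCND1 probe sets, CCND3 201700_at, CCNE1 213523_at, CCNE2 211814_s_at and CDK6 224847_at, 224848_at and 224851_at. CCND1 208712_at had the smallest value (adjusted p = 3.57e-05), and its change in Hep3B minus that in SNU449 was -0.99 (adjusted p = 2.09e-05). Its change in Hep3B minus that in PLC was -0.80 (adjusted p = 0.000187). Over all probe sets 2.69% were called between Hep3B and SNU449 and 5.25% between Hep3B and PLC.

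For CDK6 224847_at the Hep3B change minus the SNU449 change was -0.90 (adjusted p = 0.000188), and Hep3B minus PLC was -0.52 (adjusted p = 0.0134). For CCNE1 213523_at the differences were -0.45 from SNU449 (adjusted p = 0.0102) and -0.63 from PLC (adjusted p = 0.000652). For CCND3 201700_at they were 0.57 (adjusted p = 0.0026) and 0.42 (adjusted p = 0.0167). The changes of CCND1, CDK6, CCNE1 and CCND3 in Hep3B at these probe sets thus differed from those in each of the other lines at this setting. Some of these pairwise calls were lost under others. For CDK6 224847_at Hep3B minus PLC had an adjusted p of 0.0514 as deposited, 0.105 with arrays centred on their medians and 0.120 with its probe sets averaged. For CCND3 201700_at Hep3B minus PLC had an adjusted p of 0.0812 with the 5′ to 3′ difference as a covariate and 0.0644 without the first and the third ATAD2 siRNA arrays of PLC. With the probe sets of a gene averaged, CCND3 passed against neither line (adjusted p = 0.141 for SNU449 and 0.239 for PLC) nor in the F test (0.171), and CCNE1 did not pass against SNU449 (0.322). Between SNU449 and PLC none of the 23 probe sets was called in the main fit, against 0.113% of all probe sets. An unadjusted p under 0.05 was found for 8 of them, against 14.4% of all probe sets. With arrays centred on their medians CDK6 224847_at passed between these lines (0.58, adjusted p = 0.0392).

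CCNE2 211814_s_at had changes of -0.07 in Hep3B, 0.42 in SNU449 and -0.28 in PLC. Its F test passed (adjusted p = 0.029), but no pair of lines did in the main fit. The nearest was SNU449 minus PLC at 0.70 ± 0.15 (adjusted p = 0.0827). That pair passed with arrays centred on their medians (0.71, limma adjusted p = 0.0353) and with the dimmest 50% left out (0.0438). It also passed with an intensity trend and robust prior in limma (0.0453). Hep3B minus SNU449 passed with the dimmest 50% left out (-0.48, adjusted p = 0.0428). The F test was lost without the second or the third SNU449 control, any one of the ATAD2 siRNA arrays of SNU449 or the third PLC control (adjusted p from 0.0563 to 0.0789). Without the second ATAD2 siRNA array of PLC it also passed for CCNE1 242105_at (0.0297), CDK2 204252_at (0.036) and CDK2 211804_s_at (0.00354), without the third for CCND2 200952_s_at (0.030), and without the third ATAD2 siRNA array of Hep3B for CCNE2 205034_at (0.0444). The depth of the knockdown also differed between the lines (ATAD2, F test, adjusted p = 0.00258), being largest in Hep3B, and its part in these differences was not tested.

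In the mean over the 3 lines 5 probe sets were called, against 6.59% of all, with 4 lower and 1 higher, against 2.91% and 3.68%. CCND1 208712_at had -0.32 (adjusted p = 9.60e-05), CCND1 208711_s_at had -0.25 (adjusted p = 0.0255), CDK6 224848_at had -0.28 (adjusted p = 0.00986), CDK6 224847_at had -0.19 (adjusted p = 0.0198) and CCND3 201700_at had 0.16 (adjusted p = 0.0197). All 5 were also called in Hep3B and in the F test, so that these means average unlike changes. The call of CCND1 208711_s_at was lost without the first Hep3B control, the third ATAD2 siRNA array of Hep3B, the second SNU449 control or the second or the third ATAD2 siRNA array of SNU449 (adjusted p from 0.0507 to 0.0585). That call was also lost with values as deposited (-0.20, limma adjusted p = 0.104) and with arrays centred on their medians (-0.19, adjusted p = 0.155). With the 5′ to 3′ difference as a covariate its adjusted p was 0.0518. As deposited CDK2 211803_at was called lower instead (-0.20, adjusted p = 0.0426). CDK6 224847_at was lost with arrays centred on their medians (adjusted p = 0.0681). Without the second ATAD2 siRNA array of PLC 8 probe sets were lower and 2 higher, while 6306 of all probe sets (11.5%) were called.

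After the mean of each line was subtracted, the 8 genes could be set against each other over the 18 arrays. CCND1 and CDK6 had a Pearson r of 0.926, CCND1 and CCNE1 0.779, CCND1 and CCND3 -0.901, and CDK6 and CCND3 -0.826. These values share the arrays, their processing and the Hep3B contrast, and stand as a description. Among 13060 genes in the upper part by mean signal, the genes most like CCND1 were BRI3BP (r = 0.983), SFT2D2 (0.978) and ASPH (0.976). Those most like CDK6 were PTBP3 (0.941), KRT7 (0.936) and NPNT (0.930). For CCNE1 they were LINC00513 (0.966), JADE1 (0.958) and UHRF1 (0.947), and for CCND3 they were C14orf119 (0.935), NECTIN2 (0.928) and INPP5A (0.927).

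Genes that act around the 8 were counted in 8 lists, each gene by its brightest probe set. In Hep3B the E2F target genes of S phase were lower in 14 of 22 cases and higher in 0, with a median of -0.27. UHRF1, which keeps DNA methylation in place at replication, fell by 0.79 on the log2 scale, MCM2 of the replicative helicase fell by 0.39, the polymerase clamp PCNA fell by 0.37 and the ribonucleotide reductase subunit RRM2 fell by 0.35. Of 13 RB and E2F genes 5 were lower and 1 higher (E2F6), among them the RB1 relative RBL1 at -0.62, E2F2 at -0.48, E2F8 at -0.39 and E2F1 at -0.37.

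The shares over all genes in Hep3B, 5.6% lower and 6.9% higher, stand beside each of these counts, and 1 or 2 genes of a list of about 20 lie near them. Of 22 inducers of D cyclins 4 were lower in Hep3B and 1 was higher. The lower ones were the immediate early genes EGR1 at -1.48, JUNB at -1.05, JUN at -0.52 and FOS at -1.83, and the higher one was the coactivator YAP1. FOS had 7.58, 4.34 and 7.22 with ATAD2 siRNA in Hep3B and 8.37, 7.59 and 8.68 with control siRNA, with the second knockdown array far below the others (adjusted p = 0.046). EGR1 had 10.73, 8.95 and 10.57 with ATAD2 siRNA, all below 11.49, 11.50 and 11.68 with control siRNA (adjusted p = 0.00311). On the second knockdown array, the lowest for FOS and EGR1, CDK6 224847_at was the highest of the knockdown arrays of Hep3B. That array also had the highest 5′ minus 3′ difference in Hep3B, at -0.42, while the first and the third with ATAD2 siRNA had -0.79 and -0.71 and the controls lay between -0.78 and -0.65. With that difference as a covariate CDK6 224847_at changed by -0.68 in Hep3B (adjusted p = 1.23e-05).

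Genes that restrain or remove cyclins moved both ways in Hep3B. Of 7 CDK inhibitor genes CDKN1A was lower at -0.33 and CDKN1B was higher at 0.30. Of 15 cyclin turnover genes 3 were higher and 1 lower, with the ubiquitin ligase subunit SKP2 at 0.61, FBXO31, which acts on cyclin D1, at 0.34, FBXW7, which acts on cyclin E, at 0.34, and FZR1 at -0.25. Of 10 CDK activators and inhibitory kinases 1 was higher, the phosphatase CDC25A at 0.37, and 2 were lower, CKS1B at -0.38 and PKMYT1 at -0.28. Of 14 other cyclin-dependent kinases 3 were higher and 1 lower, with CDK19 at -0.86 and CDK17 at 0.50, and of 19 other cyclins 2 were higher and 2 lower.

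**Figure D4:**
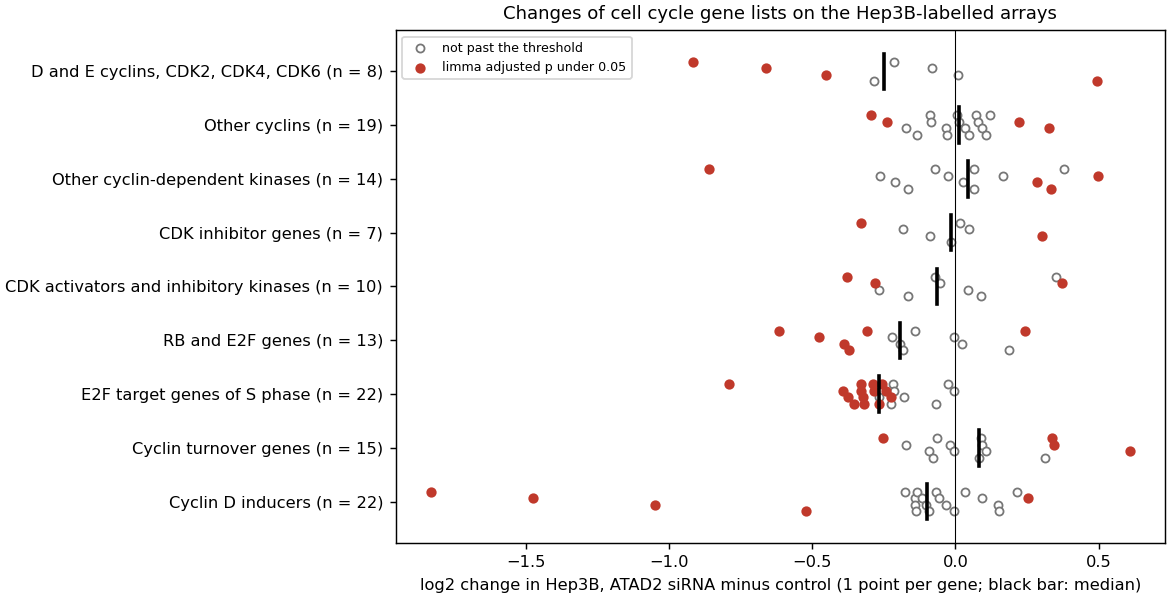
Change after ATAD2 siRNA in Hep3B (log2, ATAD2 siRNA minus control siRNA) of the D and E cyclins with CDK2, CDK4 and CDK6 (top row) and of the 8 lists around them, 1 point a gene by its brightest probe set, with filled points for adjusted p under 0.05 and a bar at each median. The E2F target genes of S phase have 14 of 22 points filled below 0 and none filled above it, with a median of -0.27.

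In SNU449 none of the 122 listed genes was called (limma), and 10 of them had an unadjusted p under 0.05, against 9.07% of all genes. In PLC 31 of the 122 had an unadjusted p under 0.05, against 19.2% of all genes. There 4 of the 122 were called, which were MYC at -0.37 (adjusted p = 0.0363), MCM2 at -0.32, E2F5 at -0.36 and TFDP1 at -0.31. Over all probe sets 3.44% were called in PLC, a share that counts dim probe sets and so is not a like one. MYC had 9.74, 10.12 and 9.73 with ATAD2 siRNA in PLC and 10.18, 10.22 and 10.30 with control siRNA, and the first and the third of its knockdown arrays, which stood apart in the 5′ minus 3′ difference, were again the lowest. MCM2 had 8.18, 8.41 and 8.17 with ATAD2 siRNA in PLC and 8.57, 8.57 and 8.58 with control siRNA. E2F5 had 9.29, 9.65 and 9.34, against 9.76, 9.76 and 9.86. TFDP1 had 9.69, 9.88 and 9.74, against 10.10, 10.08 and 10.04. In these genes too the first and the third knockdown arrays were the lowest. For all 4 called genes the second knockdown array also lay below every control. The part of the 5′ minus 3′ difference in these changes was not tested.

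The lines also differed on control siRNA arrays. For control arrays a call needed an adjusted p under 0.05 and a difference of 1 log2 unit or more. In SNU449 against Hep3B 5 of the 23 probe sets passed, against 17.1% of the whole table, with 1 higher and 4 lower in SNU449, against 8.76% and 8.36%. All 4 lower ones belonged to CDK6. CDK6 224847_at averaged 9.02 ± 0.03 in SNU449, 9.74 ± 0.04 in PLC and 10.5 ± 0.02 (SD, n = 3 each) in Hep3B, and SNU449 minus Hep3B was -1.44. CDKN2A, an inhibitor of CDK4 and CDK6 singled out after its values were seen, lay between 10.56 and 10.61 on SNU449 controls, between 8.10 and 8.19 on PLC controls and between 5.22 and 5.69 on Hep3B controls. The probe set called higher was CCND2 200953_s_at, at 1.24.

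CDK4 ran in the opposite order to CDK6 between SNU449 and Hep3B. It averaged 10.6 ± 0.04 in SNU449, 11.1 ± 0.002 in PLC and 10.01 ± 0.03 in Hep3B, with PLC minus Hep3B at 1.11 and SNU449 minus Hep3B at 0.62. CCNE1 213523_at averaged 8.89 ± 0.06 in SNU449, 7.89 ± 0.04 in PLC and 8.41 ± 0.08 in Hep3B. CCNE2 205034_at averaged 7.70 ± 0.15 in SNU449, 6.99 ± 0.12 in PLC and 8.23 ± 0.04 in Hep3B. For CDK4, CCNE1 and CCNE2 each pair of lines had an adjusted p under 0.05.

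CCND1 had no single order of lines. Its probe set 208712_at averaged 8.43 ± 0.08 in SNU449, 9.31 ± 0.08 in PLC and 8.93 ± 0.01 in Hep3B, while 208711_s_at averaged 9.03 ± 0.15 in SNU449, 7.72 ± 0.24 in PLC and 9.20 ± 0.12 in Hep3B. PLC was thus highest on one and lowest on the other. CCND3 201700_at averaged 7.62 ± 0.10 in SNU449, 7.995 ± 0.04 in PLC and 8.26 ± 0.02 in Hep3B. CCND2 231259_s_at averaged 5.81 ± 0.22 in SNU449, 5.42 ± 0.11 in PLC and 4.88 ± 0.09 in Hep3B. CDK2 204252_at averaged 8.85 ± 0.04 in SNU449, 8.68 ± 0.04 in PLC and 9.16 ± 0.05 in Hep3B, and SNU449 and PLC did not pass the threshold for it (adjusted p = 0.0973).

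In PLC against Hep3B 5 probe sets passed (15.8% of the whole table), CDK4 higher in PLC and CCND1 208711_s_at, CCNE2 205034_at, CDK6 224851_at and CDK6 235287_at lower, against 8.28% and 7.57% of all probe sets. In SNU449 against PLC 3 passed (17.3% of the whole table), all higher in SNU449 and none lower, which were CCND1 208711_s_at, CCND2 200953_s_at and CCND3 1562028_at, against 8.52% higher and 8.79% lower. The deposited columns had differing distributions between lines, and the comparisons with PLC depended on how they were scaled. The median of PLC minus Hep3B over all probe sets was -0.71 as deposited and 0.54 with arrays centred on their medians, against 0.00 after quantile normalization. Under the 4 scalings tried, the sign of PLC minus Hep3B held for 3 of the 8 brightest probe sets (CCND1 208712_at, CCNE2 and CDK4) and turned for CCND2, CCND3, CCNE1, CDK2 and CDK6, while that of SNU449 minus Hep3B held for all 8. The sign of SNU449 minus PLC turned for CCNE1, CCNE2 and CDK2.

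**Figure D5:**
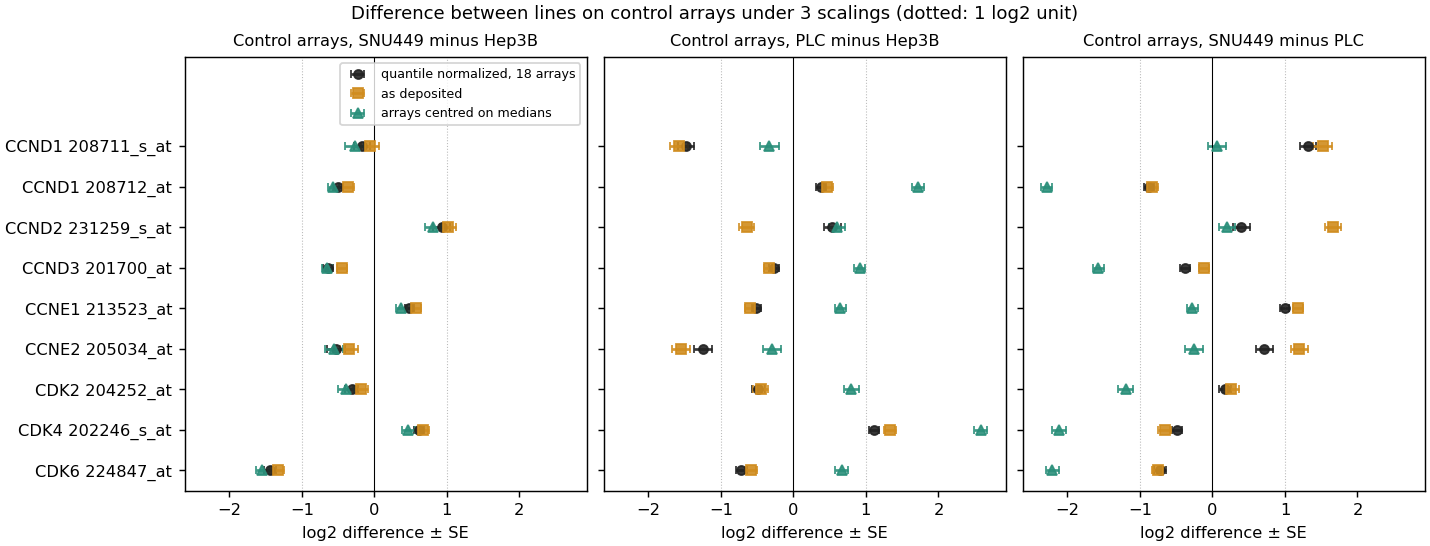
Difference between lines on the control arrays (log2, points, with standard error bars) under 3 scalings, for the brightest probe set of each gene and for CCND1 208711_s_at. SNU449 minus Hep3B keeps its sign for every gene shown, with CDK6 at -1.44 after quantile normalization, while CDK6 in PLC minus Hep3B lies at -0.72 after quantile normalization and at 0.67 with arrays centred on their medians.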

How the data were processed

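Expression was measured on 18 Affymetrix arrays. The deposited values are log2 signals of 54675 probe sets, judged so from their range of 1.33 to 14.0. How the authors corrected the background and normalized the arrays is not given in the sources used here. The submitters' processing notes name limma alone. Sorted columns differed by at most 0.155 inside a line but by as much as 1.51 across lines, so all 18 columns were quantile normalized together. Gene names came from the platform annotation, with symbols updated through RefSeq.

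One model with a mean for each of 6 groups was fitted to all probe sets with limma 3.58.1 in R 4.3.3 (12 residual degrees of freedom). Two-sided p-values were adjusted by Benjamini-Hochberg over the whole table, with a threshold of 0.05. Alternatives covered scaling, dim probe sets, 1 value per gene, the 5′ to 3′ difference, thresholds, a replicate block and each array left out. Depth does not apply to arrays, whose number limits the precision. With 3 arrays against 3 an exact permutation test cannot give a p under 0.1. Same-numbered arrays did not deviate together, so replicate numbers were not taken to pair them. The procedure was tested on data simulated with 1 spread per probe set for all groups. That test does not cover the unequal spread of the measured groups.

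The members and lists were chosen with earlier results of these data known. Named were all 8 genes with every probe set, ATAD2 and RB1 as checks, up to 4 called genes of a list in a line by size of change, and the 3 genes most like each called member. E2F6 and YAP1 were named after their values were seen.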

Additional observations from a re-analysis of the deposited data

Results flagged for a closer look

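For 8 probe sets the effect of ATAD2 siRNA differed between the 3 lines by the F test over the interaction terms (limma, adjusted over all probe sets). For CCND1 the adjusted p was 3.57e-05 at 208712_at, with changes of -0.92 in Hep3B, 0.07 in SNU449 and -0.12 in PLC, and 0.00159 at 208711_s_at, with changes of -0.89, 0.06 and 0.08 in the same lines. For CDK6 it was 0.000504 at 224847_at, 0.00299 at 224851_at and 0.00768 at 224848_at. The change at 224851_at was -0.91 in Hep3B, 0.28 in SNU449 and 0.09 in PLC. For CCNE1 213523_at it was 0.00132, with changes of -0.45 in Hep3B, 0.00 in SNU449 and 0.18 in PLC. For CCND3 201700_at it was 0.0046, with changes of 0.49 in Hep3B, -0.08 in SNU449 and 0.07 in PLC, and it was 0.171 with the probe sets of CCND3 averaged and 0.0557 with a replicate block. For CCNE2 211814_s_at it was 0.029, with changes of -0.07, 0.42 and -0.28, none of them past the threshold within its line.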

How the results depend on the processing

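In Hep3B the calls of CCND1 208711_s_at and 208712_at, CCNE1 213523_at and CDK6 224847_at, 224848_at and 224851_at held under every alternative that tested them except a minimum change of 1 log2 unit, and that of CCND3 201700_at was also lost with its probe sets averaged. CDK2 204252_at passed in Hep3B under 8 of the 32 alternatives, and CDK2 211804_s_at in PLC was lost under 21. In SNU449 every alternative gave 0 member calls. As deposited and with quantile normalization within each line, control arrays gave 3 probe sets higher for SNU449 minus Hep3B, 10 lower for PLC minus Hep3B and 10 higher for SNU449 minus PLC. Arrays centred on their medians gave 2 lower in the mean over lines, 2 higher and 0 lower for PLC minus Hep3B, and 1 higher and 8 lower for SNU449 minus PLC. Leaving out the dimmest 50% gave 0 higher for SNU449 minus Hep3B, and the 5′ to 3′ covariate gave 2. That covariate also called CCND3 1562028_at lower in PLC (-0.66, adjusted p = 0.0318), where CDK2 211804_s_at was lost. It called CCND3 1562028_at lower in the mean over lines as well (-0.34, adjusted p = 0.012). With 1 probe set per gene there were 4 lower in Hep3B, 0 lower in PLC, 4 in the F test, and for control arrays 0 higher and 1 lower (SNU449 minus Hep3B), 1 lower (PLC minus Hep3B) and 0 higher (SNU449 minus PLC). Averaging the probe sets of each gene gave the same control and F test counts, 0 higher and 3 lower in Hep3B, 0 lower in PLC, and 0 higher and 2 lower in the mean over lines. The genes of that F test count differed, since CCNE2 entered (adjusted p = 0.0475) and CCND3 dropped out (adjusted p = 0.171). At an adjusted p under 0.01, and likewise with a replicate block, PLC had 0 lower and the mean over lines 0 higher and 2 lower. With the block CCND3 201700_at passed neither the F test (adjusted p = 0.0557) nor Hep3B minus PLC (0.0779), and CCNE1 213523_at did not pass Hep3B minus SNU449 (0.0717). With each line fitted by itself PLC had 0 lower. A minimum change of 1 log2 unit left 0 in Hep3B, PLC and the mean over lines in both directions, and no minimum on control arrays gave 7 higher and 13 lower (SNU449 minus Hep3B), 5 and 12 (PLC minus Hep3B) and 9 and 9 (SNU449 minus PLC). Leaving out the first and the third ATAD2 siRNA arrays of PLC, chosen after the data were seen, gave 2 lower in PLC.

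Leaving out single arrays gave 1 higher and 6 to 8 lower in Hep3B, 0 to 2 higher and 0 to 5 lower in PLC, 1 to 2 higher and 3 to 8 lower in the mean over lines, 7 to 11 in the F test, 1 to 2 higher for SNU449 minus Hep3B, 4 to 5 lower for PLC minus Hep3B and 3 to 4 higher for SNU449 minus PLC. The highest PLC counts came without its second ATAD2 siRNA array. Over the whole table the call counts were 4844 (3345 to 5900) in Hep3B, 24 (9 to 50) in SNU449 and 1881 (1026 to 7588) in PLC. These ranges cover single arrays left out and not the other alternatives. Under the 4 scalings the sign on control arrays turned at least once for 14 of the 23 probe sets in PLC minus Hep3B, 10 in SNU449 minus PLC and 1 in SNU449 minus Hep3B. Turns relative to quantile normalization that involved a called value were those of PLC minus Hep3B at CCNE1 242105_at (-1.12 as deposited, -1.09 within lines), CDK2 211803_at (-1.13 and -1.09) and CDK6 231198_at (-1.14 and -1.12) and of SNU449 minus PLC at CDK2 204252_at (-1.20, median centred). CCND3 201700_at turned in the mean over lines (-0.029 with averaged probe sets, adjusted p = 0.801). The cause was not tested. Dim probe sets limit CCND2 most, and levels of PLC against other lines depend on the scaling.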
